A study of Homo sapiens with 2 samples.

Results

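Kinesins are motor proteins that bind microtubules, and their genes were taken as every gene whose symbol is KIF with a number and at most a letter and a further digit, or KIFC with a number from 1 to 3, with 1 row kept per symbol. This gave 42 kinesin genes of 56638 genes. They were split into 12 mitotic kinesins, 13 transport kinesins of the kinesin-1, kinesin-2 and kinesin-3 families, and 17 others. RNA was sequenced from TFK1, an established line of extrahepatic cholangiocarcinoma cells. The cells carried a lentiviral short hairpin RNA against MBD2, a reader of methylated DNA (T-shMBD2, genotype labelled as MBD2 knockdown), or a negative control hairpin (T-shNC). The study's methods describe hairpins in the pLKO.1 vector, delivered by lentivirus, and selection of transduced cells with puromycin or G-418, without saying which drug these cells received, and the labels give no other treatment and no time. Each condition had 1 library, 1 hairpin and 1 cell line, so nothing below could be checked against replicates and no p-value is given.

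Most kinesins turn ATP hydrolysis into steps toward the plus end of a microtubule. Mitotic kinesins slide spindle microtubules apart, bring chromosomes to the spindle equator, shorten microtubule ends and build the midzone from which cytokinesis proceeds, so their genes are mostly transcribed late in the cell cycle. Transport kinesins carry vesicles, mitochondria and other organelles outward, and those of the kinesin-2 family also run inside cilia. In biliary epithelium, whose cells have an apical surface and a primary cilium, both kinds of motor are in use.

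The counts summed to 14728814 in T-shMBD2 and 14467406 in T-shNC. MBD2 had 365 counts in T-shMBD2 and 1013 in T-shNC, or 15.6 and 44.6 TPM, a level per transcript length scaled to the same total in each library, and its log2FC was -1.48 (-1.66 to -1.31). Here log2FC is the log2 ratio of T-shMBD2 over T-shNC after TMM scaling, a scaling that takes most genes as level, and the range in parentheses is the exact Clopper-Pearson 95% interval of how a gene's reads split between the libraries. Such intervals cover counting error only, not the difference between cultures. Of the biliary epithelial markers, KRT7 (11632 and 12975 counts in T-shMBD2 and T-shNC), KRT8 (49193 and 62047) and KRT18 (6277 and 7981) were abundant, whereas KRT19 had 119 and 70 counts and EPCAM 111 and 162. The log2FC of the markers reported here ran from -0.73 for SOX9 to 0.75 for KRT19, and their part in the kinesin values was not tested. Markers of leukocytes had at most 4 counts in either library, those of fibroblasts at most 6 and those of endothelium at most 1.

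The letters ahead of the start sites are shown for 7 kinesins because the mitotic genes share a promoter pattern that the transport genes mostly lack. Genes of the late cell cycle often carry a CCAAT box and, downstream of it, a short element called the CHR. Promoters from RefSeq (GRCh38.p14) span 250 bases before a gene's start and 50 from it on, and 34 of the 42 kinesins had one. The following stretches, 5′ to 3′ on the strand of the gene, end at the last base before the RefSeq start except for KIF4A and KIF2C, which end 15 and 20 bases before it. Capitals mark CCAAT on either strand (CCAAT or ATTGG) and the CHR letters TTTGAA or TTCGAA on either strand (TTTGAA reads TTCAAA on the other strand).
KIF18B, minus strand, chr17:44947774-44947923: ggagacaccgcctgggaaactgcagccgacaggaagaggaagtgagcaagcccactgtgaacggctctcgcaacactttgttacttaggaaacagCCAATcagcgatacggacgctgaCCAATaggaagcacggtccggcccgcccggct
KIF14, minus strand, chr1:200620752-200620901: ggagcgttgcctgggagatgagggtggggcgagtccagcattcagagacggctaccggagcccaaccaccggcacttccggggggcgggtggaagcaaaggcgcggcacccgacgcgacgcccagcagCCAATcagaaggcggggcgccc
KIF11, plus strand, chr10:92592980-92593129: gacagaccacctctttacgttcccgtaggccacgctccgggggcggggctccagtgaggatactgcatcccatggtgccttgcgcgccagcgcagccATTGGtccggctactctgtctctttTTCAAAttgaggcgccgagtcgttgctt
KIF4A, plus strand, chrX:70289954-70290089: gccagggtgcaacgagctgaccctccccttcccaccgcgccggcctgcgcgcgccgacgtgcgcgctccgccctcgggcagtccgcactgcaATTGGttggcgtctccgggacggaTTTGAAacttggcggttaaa
KIF2C, plus strand, chr1:44739687-44739817: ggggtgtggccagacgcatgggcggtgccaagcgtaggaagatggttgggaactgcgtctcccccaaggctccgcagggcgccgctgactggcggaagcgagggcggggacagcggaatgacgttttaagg
KIF1A, minus strand, chr2:240821404-240821553: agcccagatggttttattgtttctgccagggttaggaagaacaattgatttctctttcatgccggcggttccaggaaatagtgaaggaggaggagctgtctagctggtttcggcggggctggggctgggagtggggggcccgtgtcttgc
KIF12, minus strand, chr9:114099293-114099442: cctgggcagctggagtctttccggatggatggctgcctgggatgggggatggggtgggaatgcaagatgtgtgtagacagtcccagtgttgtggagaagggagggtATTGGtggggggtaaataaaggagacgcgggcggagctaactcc

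KIF18B, KIF14 and KIF11 are shown as mitotic kinesins that were lower in T-shMBD2, KIF4A and KIF2C as the mitotic kinesins with a log2FC above 0, and KIF1A and KIF12 as the kinesins furthest below 0. In KIF11 the CCAAT letters began 53 bases before the start and the CHR letters 28 before it, and in KIF4A they began 58 and 34 bases before it. In KIF18B and KIF14 the CHR letters began 3 and 2 bases downstream of the start, beyond the printed stretch. KIF2C and KIF1A held neither set of letters in their 300 bases, and KIF12 held CCAAT alone. The windows of KIF1A, KIF18B and KIF11 lie wholly upstream of these genes in the GENCODE annotation. For KIF1A, on the minus strand of chromosome 2, the window spans 240821354 to 240821653 and the annotated gene begins at 240821036. Its letters thus describe a RefSeq start upstream of the annotated gene.

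CHR letters occurred in 10 of the 12 mitotic promoters (83.3%), in 1 of 11 transport promoters (KIF5B) and in 2 of 11 others (KIF24 and KIF4B), against 16.6% of all 27305 promoters of this length. CCAAT letters occurred in 10 mitotic promoters, 3 transport promoters and 4 others, against 35.7% of all. Both stood in 9 of the 12 mitotic promoters (75%), against 6.58% of all promoters and 5.31% of the 4597 promoters of genes with 1000 counts or more in the libraries together. The mitotic exceptions were KIF20A, with CCAAT letters only, KIF15, with CHR letters only, and KIF2C, with neither. The median log2FC was 0.014 for the 524 genes of that depth with CHR letters and 0.015 for all 4597, and it was -0.001 for the 234 genes with both sets of letters once the kinesins were left out. A match of letters is a description of the sequence and not a bound site.

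**Figure D1:**
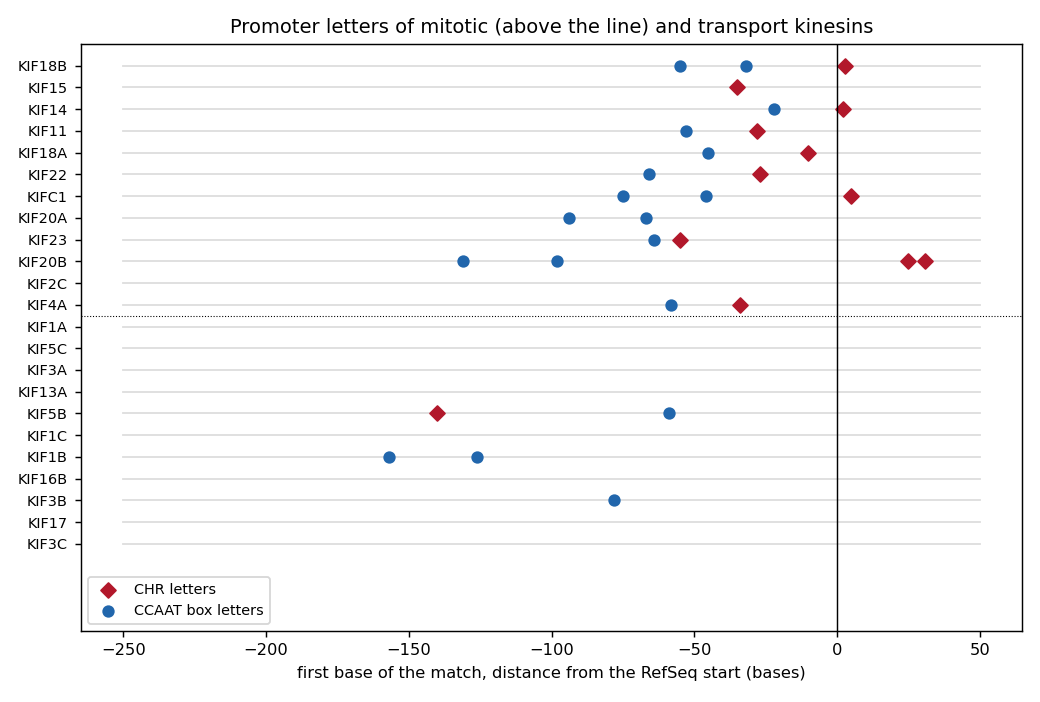
Position of CHR letters (red diamonds) and CCAAT letters (blue circles) in the promoters of the 12 mitotic kinesins, above the dotted line, and of the 11 transport kinesins with a promoter, below it. The horizontal axis is the position in bases of the first letter relative to the RefSeq start, with the start counted as base 1. Each grey line is the 300 bases searched, and mitotic genes stand in order of log2FC with the lowest at the top. CHR letters lie in 10 mitotic rows and 1 transport row.

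A CpG is the base pair step that MBD2 recognises when it is methylated. The mitotic promoters held a median of 29 CpG (19 to 35), the transport promoters 30 (2 to 60), all promoters 14, and promoters of genes with at least 1000 counts 28. KIF1A and KIF12 held 10 and 11 CpG, and KIF5C, a kinesin-1 heavy chain best known from neurons, held 2. The KIF5C window, from 148947625 to 148947924 on chromosome 2, lies inside a gene that begins at 148875250 in the GENCODE annotation. Its CpG count, the lower end of the transport range, thus describes an internal RefSeq start and not the outer start of that gene. The KIF1A window lies wholly upstream of its gene in that annotation. DNA methylation was not measured in these libraries.

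Of the 42 kinesins, 39 reached 10 counts in the libraries together, the minimum for a log2FC. KIF25 had 1 count in each library, and KIF19 and KIF2B had 0 in both. The summed TPM of all kinesins was 1589 in T-shMBD2 and 1727 in T-shNC. The mitotic list gave 50.1% and 52.7% of that sum. The order of the most abundant members was the same in both libraries, with KIF5B first, then KIF23, KIFC3 and KIF11, on the TPM scale, which divides by gene length.

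**Figure D2:**
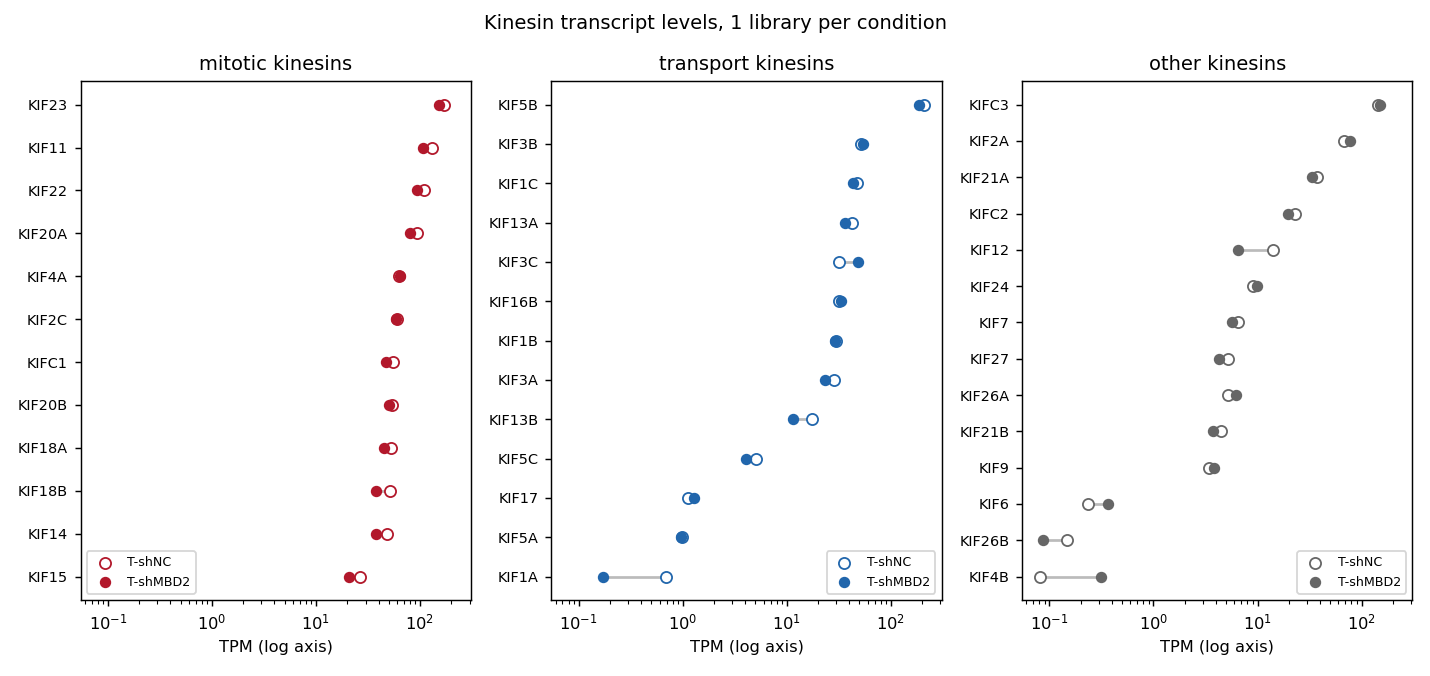
Level of the 39 kinesins with at least 10 counts in T-shNC (open circles) and T-shMBD2 (filled circles) in TPM on a log axis, 1 point per library, with a panel each for the mitotic (red), transport (blue) and other (grey) kinesins. The circles of most genes lie close together, and wide gaps are at KIF1A (0.172 TPM in T-shMBD2 and 0.685 in T-shNC), KIF12 (6.48 and 14.1 TPM) and KIF4B (0.316 and 0.0811 TPM).

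As a group, the mitotic kinesins were slightly lower in T-shMBD2. Their median log2FC was -0.19, with 10 of 12 below 0 and 2 above. All 12 reached 1000 counts in the libraries together, and none was past 1 or -1. Among the 5864 genes of that depth 1.43% were past 1 or -1. The interval lay wholly below 0 for 9 of the 12 and wholly above 0 for 0, against 26.8% below and 30.4% above among all genes of that depth, whose median log2FC was 0.01. Summed over the list, the TPM was 796 in T-shMBD2 and 911 in T-shNC, or 87.3% of the control, and the summed counts gave a log2FC of -0.17 (-0.20 to -0.15). MKI67, the proliferation antigen of cycling cells, had 12108 and 13336 counts and a log2FC of -0.15 (-0.18 to -0.11). In bulk RNA, fewer cells in mitosis and less of these transcripts per cell cannot be told apart.

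The lowest mitotic kinesin was KIF18B, a motor of the plus ends of astral microtubules, with 906 counts in T-shMBD2 and 1199 in T-shNC (37.6 and 51.0 TPM). Its log2FC was -0.41 (-0.54 to -0.29), a value below which 4.72% of the genes with at least 1000 counts lay. Its relative KIF18A, which dampens chromosome movements at the spindle equator, had 919 and 1055 counts (45.0 and 53.1 TPM) and a log2FC of -0.21 (-0.34 to -0.08). The difference between the libraries was thus at most 1.33-fold in this family. In GENCODE 29, 61 exonic bases of KIF18A overlap METTL15, which had 469 and 604 counts.

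The spindle-separating motors were both lower in T-shMBD2. KIF11, the tetrameric kinesin-5 that pushes the spindle poles apart and is the target of monastrol, had 2964 and 3523 counts (106.7 and 130.1 TPM) and a log2FC of -0.26 (-0.33 to -0.19). KIF15, a kinesin-12 that can keep a bipolar spindle when KIF11 is inhibited, had 572 and 712 counts (20.7 and 26.4 TPM) and a log2FC of -0.32 (-0.49 to -0.16). KIFC1, the minus-end-directed kinesin-14 that clusters extra centrosomes, had 731 and 824 counts (47.2 and 54.6 TPM) and a log2FC of -0.18 (-0.33 to -0.04).

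The motors of the midzone and of cytokinesis covered a wider range. KIF14, a kinesin-3 that acts with citron kinase in cytokinesis, had 1572 and 1952 counts (37.8 and 48.2 TPM) and a log2FC of -0.32 (-0.42 to -0.22). KIF20A, which is needed to bring the Aurora B complex to the midzone, had 1484 and 1660 counts (81.1 and 93.1 TPM) and a log2FC of -0.17 (-0.27 to -0.07). KIF23, the motor of the centralspindlin complex, was the most abundant mitotic kinesin in TPM, with 3144 and 3391 counts (152 and 169 TPM) and a log2FC of -0.12 (-0.19 to -0.05). KIF20B, a late cytokinesis motor, had 1884 and 1962 counts (50.5 and 54.0 TPM) and an interval that held 0, with a log2FC of -0.07 (-0.16 to 0.02). These 4 were thus lower in T-shMBD2 by 1.05 to 1.25-fold, and KIF14 and KIF20B had intervals that did not overlap. KIF20A overlaps BRD8 over 132 exonic bases and CDC23 over 68.

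The chromosome-bound motors did not share a direction. KIF22, which binds DNA and pushes chromosome arms from the poles, had 1328 and 1520 counts (92.7 and 108.9 TPM) and a log2FC of -0.20 (-0.31 to -0.10). KIF4A, the chromokinesin that with PRC1 sets the length of the midzone, had 1603 and 1523 counts (64.5 and 62.9 TPM) and a log2FC of 0.06 (-0.04 to 0.17). KIF2C, a kinesin-13 that takes microtubule ends apart at the kinetochore to correct attachments, had 1004 and 990 counts (59.4 and 60.1 TPM) and a log2FC of 0.01 (-0.12 to 0.14). KIF4A and KIF2C were the only mitotic kinesins with a log2FC above 0, both intervals held 0, and that of KIF2C was below 0 when counts were scaled by their totals (-0.006) or TPM were used (-0.02).

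**Figure D3:**
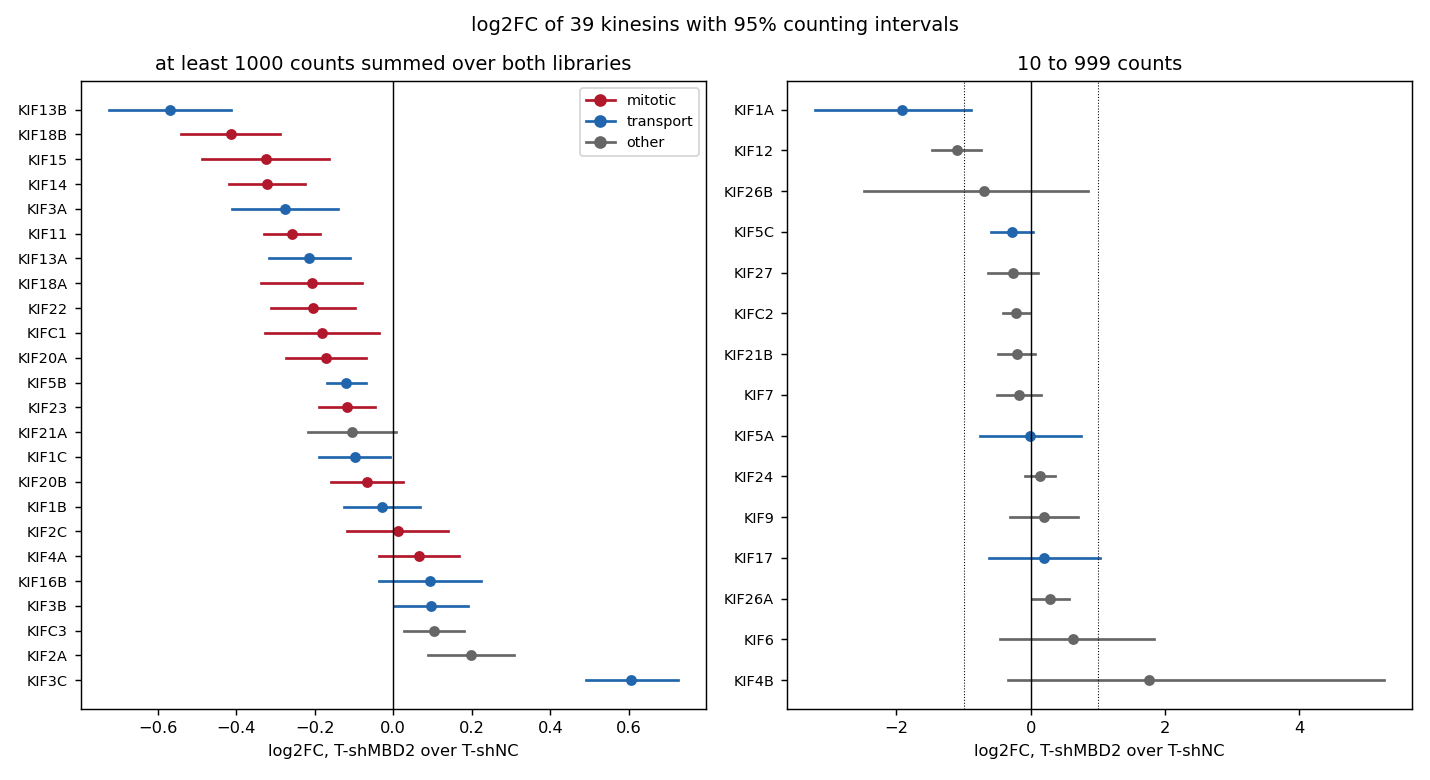
Log2FC (T-shMBD2 over T-shNC) of the 39 kinesins with at least 10 counts, in order of value, with bars for the exact 95% interval of counting error; the left panel holds genes with at least 1000 counts, the right panel those with fewer, on a wider axis with dotted lines at 1 and -1. Of the mitotic kinesins (red) 9 have an interval wholly below 0, and the transport kinesins (blue) run from KIF1A at -1.91 to KIF3C at 0.61.

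The transport kinesins spread more widely, to both sides of 0. Their median log2FC was -0.10, with 9 below 0 and 4 above, and the summed TPM was 472 in T-shMBD2 and 497 in T-shNC. The interval lay wholly below 0 for 6 of the 13 and wholly above 0 for 2, against 18.4% and 19.7% of all 17545 genes with at least 10 counts. KIF1C was not among those below 0 with DESeq2 size factors, and KIF3B was not among those above 0 when counts were scaled by their totals or upper quartiles. Among the 9 of them with at least 1000 counts, 5 intervals lay below 0 and 2 above, against 26.8% and 30.4% of all genes of that depth. The difference of the medians, mitotic minus transport, was -0.09 on the log2 scale, which is small beside the range within the transport list. It is given without a test because genes of a list are not replicates.

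The kinesin-1 heavy chains carry vesicles, mitochondria and lysosomes. KIF5B, the ubiquitous heavy chain, had 6317 and 6822 counts (188 and 208 TPM), 39.8% and 41.9% of all transport kinesin TPM, and a log2FC of -0.12 (-0.17 to -0.07). KIF5C had 161 and 194 counts (4.06 and 5.02 TPM) and a log2FC of -0.28 (-0.59 to 0.03), and KIF5A, like KIF5C known mainly from neurons, had 32 in each library and a log2FC of -0.01 (-0.76 to 0.74). The intervals of KIF5C and KIF5A held 0. Of the light chains that couple these motors to cargo, KLC1 had 366 and 396 counts and a log2FC of -0.12 (-0.33 to 0.09), and KLC2 had 376 and 415 counts and -0.15 (-0.36 to 0.05). KLC4 had 116 and 160 counts and -0.47 (-0.83 to -0.12), and KLC3 had 14 and 9 counts and 0.60 (-0.68 to 2.02), so the interval lay wholly below 0 for KLC4 and held 0 for the others.

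The kinesin-2 subunits diverged. KIF3A and KIF3B pair with the adaptor KIFAP3 in the heterotrimeric motor of cilia, and KIF3C is an alternative partner of KIF3A. KIF3A had 837 and 1007 counts (23.1 and 28.6 TPM) and a log2FC of -0.28 (-0.41 to -0.14). KIFAP3 had 389 and 462 counts and a log2FC of -0.26 (-0.46 to -0.06). KIF3B had 1877 and 1746 counts (53.8 and 51.3 TPM) and a log2FC of 0.10 (0.001 to 0.19). Subunits of the same trimer thus stood on both sides of 0, by small amounts. The interval of KIF3B held 0 when counts were scaled by their totals or upper quartiles.

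KIF3C had 1500 counts in T-shMBD2 and 979 in T-shNC (48.0 and 32.2 TPM) and the highest log2FC of the kinesins with at least 1000 counts, 0.61 (0.49 to 0.72), above 97.5% of all genes of that depth. The ratio of KIF3C to KIF3A in TPM was 2.08 in T-shMBD2 and 1.13 in T-shNC, and that of KIF3B to KIF3A was 2.32 and 1.80. KIF3C therefore stood 1.52-fold higher while its partner KIF3A stood 1.21-fold lower. KIF3C lies on the minus strand of chromosome 2 at chr2:25926596-25982749 (GRCh38, GENCODE 29). KIF17, the homodimeric kinesin-2, had 29 and 25 counts and a log2FC of 0.20 (-0.62 to 1.04).

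Among kinesin-3 motors, which carry dense-core vesicles, synaptic vesicle precursors and endosomes, KIF1A stood apart. It had 9 counts in T-shMBD2 and 35 in T-shNC (0.172 and 0.685 TPM), and its log2FC of -1.91 (-3.21 to -0.88) was the lowest of all kinesins. This level was well under that of its relatives, since KIF1B had 1758 and 1782 counts (28.8 and 30.0 TPM) with a log2FC of -0.03 (-0.12 to 0.07), and KIF1C, which carries integrins and dense-core vesicles, had 1953 and 2078 (43.1 and 47.1 TPM) with -0.10 (-0.19 to -0.01). Of the 17545 genes 5.07% were below -1. At this depth the value depends on the scale, and it was -0.52 with log2 of TPM plus 1. KIF1A lies on the minus strand at chr2:240713761-240821036 (GRCh38, GENCODE 29).

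KIF13B, which moves the phosphoinositide-binding protein centaurin-alpha and other membrane cargo, was the lowest of the deeply counted kinesins. It had 576 and 849 counts (11.5 and 17.4 TPM) and a log2FC of -0.57 (-0.72 to -0.41), below which 2.17% of the genes with at least 1000 counts lay. Its paralog KIF13A, which positions recycling endosomes, had 1429 and 1647 counts (36.1 and 42.7 TPM) and a log2FC of -0.21 (-0.32 to -0.11). KIF16B, a motor of early endosomes, had 1000 and 931 counts (33.2 and 31.8 TPM) and a log2FC of 0.09 (-0.04 to 0.22). The KIF13 pair was thus lower in T-shMBD2 and KIF16B was near level.

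**Figure D4:**
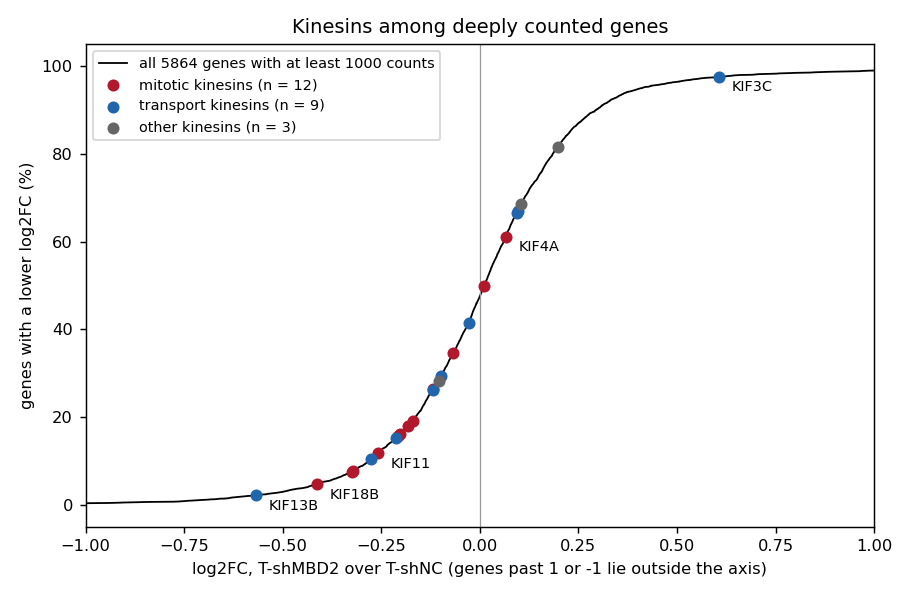
Percent of the 5864 genes with at least 1000 counts that have a lower log2FC (T-shMBD2 over T-shNC), drawn as a line against log2FC, with the kinesins of that depth as points on it (12 mitotic in red, 9 transport in blue, 3 other in grey); genes past 1 or -1 lie outside the axis. Most mitotic points sit on the lower part of the line, from KIF18B at 4.72% to KIF4A at 61.1%, and the transport points reach from KIF13B at 2.17% to KIF3C at 97.5%.

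The other kinesins were balanced, with 7 above 0, 7 below 0 and a summed TPM of 321 and 320. KIF12 had the largest difference among those whose interval excluded 0. It is a kinesin of liver, bile duct and kidney epithelium, and loss-of-function variants in it are a known cause of cholestatic liver disease in children. It had 95 counts in T-shMBD2 and 202 in T-shNC (6.48 and 14.1 TPM) and a log2FC of -1.09 (-1.46 to -0.74). It lies on the minus strand at chr9:114086126-114099291 (GRCh38, GENCODE 29). The biliary markers reported here lay on both sides of 0, with log2FC of -0.73 for SOX9 (264 and 435 counts), -0.55 for EPCAM, -0.36 for KRT18, -0.34 for KRT8 and -0.17 for KRT7, and of 0.40 for CDH1 (2342 and 1762 counts) and 0.75 for KRT19. Their part in the KIF12 value was not tested.

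KIF4B, an intronless relative of KIF4A, had 8 and 2 counts (0.316 and 0.0811 TPM) and a log2FC of 1.76 (-0.33 to 5.26), with an interval that held 0 and a control library under the floor of 3 counts. In GENCODE 29 transcripts, 14% of its 50-base words are shared with KIF4A, so reads of the abundant KIF4A can be counted for it. It was the 1 kinesin above 1, while 5.48% of the 17545 genes were. KIF12 and KIF1A were the 2 of 39 below -1, close to the 5.07% of the 17545 genes that were. With at least 100 counts required, or with log2 of TPM plus 1, only KIF12 remained past 1 or -1.

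The other deeply counted members had small differences. KIFC3, a minus-end-directed motor of epithelial junctions, had 2949 and 2727 counts (150.5 and 142.8 TPM) and a log2FC of 0.10 (0.03 to 0.18). KIF2A, a microtubule-shortening kinesin-13, had 1474 and 1278 counts (76.7 and 68.2 TPM) and a log2FC of 0.20 (0.09 to 0.31), and it shares 428 exonic bases on the same strand with IPO11, which had 662 and 610 counts. KIF21A, which slows microtubule growth at the cell cortex, had 1278 and 1366 counts (33.6 and 36.9 TPM) and a log2FC of -0.10 (-0.22 to 0.01). KIF2A and KIFC3 were thus slightly higher in T-shMBD2, and the interval of KIF21A held 0, though not when counts were scaled by their totals.

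Of the less abundant members besides KIF12, KIFC2 and KIF26A had intervals that excluded 0. Among the 14 other kinesins with a log2FC, 3 intervals lay wholly above 0 and 2 wholly below. The shares of all genes with at least 10 counts were 19.7% above and 18.4% below. KIFC2 had 406 and 468 counts and a log2FC of -0.21 (-0.41 to -0.02), and KIF26A, which lacks motor activity, had 238 and 193 and a log2FC of 0.29 (0.01 to 0.57). The interval of KIF26A held 0 when counts were scaled by their totals. The intervals of KIF26B (6 and 10 counts), KIF27 (114 and 136), KIF21B (213 and 245), KIF24 (349 and 314), KIF9 (74 and 64) and KIF6 (19 and 12) all held 0. KIF7, the Hedgehog regulator of the cilium tip, had 147 and 165 counts and an interval that held 0, and it overlaps TICRR over 589 exonic bases, or 11.8% of its exons, while TICRR had 817 and 806 counts. Because the strandedness of counting is not given in the sources used here, reads of such overlaps cannot be told apart. KIF9 overlaps its antisense gene KIF9-AS1 (8 and 15 counts) over 870 exonic bases and KLHL18 (316 and 283 counts) over 178. KIF24 overlaps UBAP1 (1288 and 1210 counts) over 143. In KIF27, 26.7% of the 50-base words of its transcripts also occur in other genes.

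The partners of the mitotic kinesins gave mixed values. Of 22 spindle and cytokinesis partners, 13 were below 0 and 9 above, with a median log2FC of -0.03, and 9 intervals lay wholly below 0 against 1 above, where 18.4% of all genes with at least 10 counts lay below and 19.7% above, and 26.8% and 30.4% of those with at least 1000. Their summed counts gave a log2FC of -0.12 (-0.13 to -0.10), further from 0 than the median. CENPE, a kinetochore kinesin named outside the KIF symbols, had 1796 and 2153 counts and a log2FC of -0.27 (-0.36 to -0.18). PRC1, the midzone crosslinker that KIF4A binds, had 2990 and 3330 counts and -0.16 (-0.24 to -0.09). RACGAP1, the centralspindlin partner of KIF23, had 2195 and 2216 counts and -0.02 (-0.11 to 0.06), and TPX2, the spindle assembly factor, had 5367 and 5040 and 0.08 (0.03 to 0.14). The list ran from ASPM, a spindle pole protein, at -0.39 to BIRC5, the survivin subunit of the Aurora B complex, at 0.10.

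The regulators of late cell cycle transcription showed no common direction. Of 10 such genes 5 were above 0 and 5 below, with a median log2FC of -0.04. FOXM1, the forkhead factor that activates mitotic genes, had 1258 and 1369 counts and a log2FC of -0.13 (-0.24 to -0.02). MYBL2, which joins the MuvB complex at CHR elements, was the highest at 0.32 (2048 and 1634 counts), and RBL2, the pocket protein of the repressive DREAM complex, was the lowest at -0.29 (1435 and 1743 counts). The 16 genes of G1/S and replication stood mostly above 0, with 12 above, 4 below and a median of 0.09. They ran from CCNE2 at -0.24 to CCNE1, a cyclin of S phase entry, at 0.70 (612 and 374 counts). The interval held 0 for 9 of the 16, lay wholly above 0 for 6 and wholly below for 1. Of all genes with at least 10 counts 19.7% lay above and 18.4% below, and 30.4% and 26.8% of those with at least 1000.

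**Figure D5:**
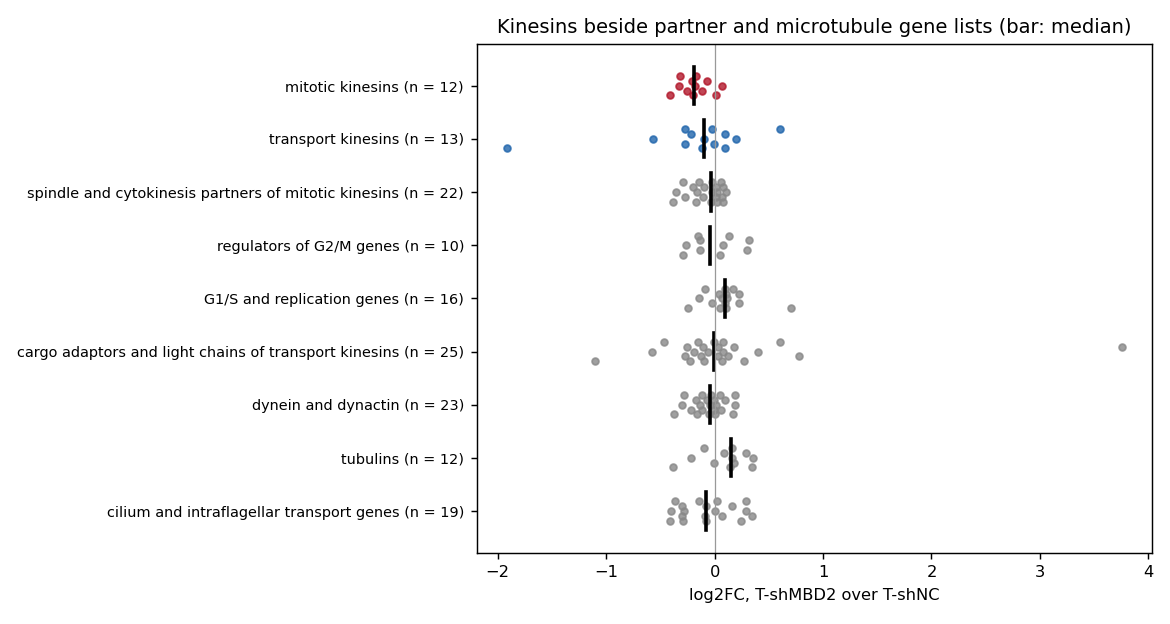
Log2FC (T-shMBD2 over T-shNC) of every gene with at least 10 counts in the mitotic (red) and transport (blue) kinesins and in 7 lists of partner and microtubule genes (grey), 1 point per gene, with the median of each list as a black bar. The mitotic kinesins have a median of -0.19, their spindle partners -0.03 and the tubulins 0.15, and the far point among the cargo adaptors is FEZ1 at 3.75.

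The cargo side showed 25 measured adaptors and light chains with 12 above 0, 13 below and a median log2FC of -0.01. LIN7A, whose LIN7 family links KIF17 to receptor cargo, had 309 and 659 counts and a log2FC of -1.10 (-1.30 to -0.90). FEZ1, an adaptor of kinesin-1, had 47 and 3 counts and a log2FC of 3.75 (2.33 to 6.29), and 3 counts is the floor at which a library is treated as not above background. These were the only adaptors past 1 or -1, so 1 of 25 was above 1 and 1 below -1, against 5.48% and 5.07% of all genes with at least 10 counts. Dynein and dynactin, the motor of the opposite direction and its activator, had 8 of 23 members above 0 and 15 below, with a median of -0.04, from DYNLRB1 at -0.37 to ACTR10 at 0.19.

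The tubulins, the track on which kinesins move, were above 0 in 8 of 12, with a median log2FC of 0.15, and 6 intervals lay wholly above 0 against 2 below, where 19.7% of all genes with at least 10 counts lay above and 18.4% below, and 30.4% and 26.8% of those with at least 1000. TUBA4A and TUBA1C were the highest, both at 0.35, and TUBB4A the lowest at -0.38. Some tubulin genes are close copies of each other, so reads may be split between those, which was not measured here. Of 19 measured genes of the cilium and intraflagellar transport 8 were above 0 and 11 below, with a median of -0.08, from IFT27 at -0.41 to IFT57 at 0.35.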

How the data were processed

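RNA-seq data of T-shMBD2 and T-shNC (TFK1 cells, 1 library each) were used. The authors deposited unnormalized counts of reads on each gene, as whole numbers, and a second table with TPM. The submitters' processing notes name fastp, HISAT2 2.1.0, featureCounts, DESeq 1.18.1 and GRCh38.p13, and the strandedness of counting is not given in the sources used here. Of 63723 lines, 46 held overflow text, and 63677 rows reduced to 56638 genes after repeated rows of a symbol were dropped. The deposited TPM then summed to 1000000 in each library.

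TMM sizes came from edgeR 4.0.16 in R 4.3.3. Log2FC used a prior of 0.5 counts, and at least 10 counts summed over both libraries were required. Exact Clopper-Pearson 95% intervals came from scipy 1.17.1. Scripts were tested on simulated data. With 1 library per condition no test between conditions was run. The kinesins, their groups and all lists were chosen with earlier results of these data known. Named in full were mitotic and transport kinesins, others past 1 or -1 or with 1000 counts in a library, the highest and lowest member of each list, and obligate partners. LIN7A and FEZ1 were named as past that limit, and KIFC2, KIF26A, KLC3 and KLC4 after their values were seen. A marker gene is not reported here. Gene positions, exon overlaps and 50-base words came from GENCODE 29 (GRCh38). The coordinates in the deposited tables differ from those of GRCh38 and were not used, so the counts may rest on another annotation than these overlaps. Promoters came from RefSeq (GRCh38.p14), and 26 of 34 kinesin promoters ended inside a GENCODE 29 transcript of the gene. BORCS5 and IFT22 matched no row. The alternatives were scaling by total counts, by upper quartiles or by DESeq2 1.42.0 size factors, log2 of TPM plus 0.1 or 1, a prior of 2, minimums of 1 or 100 counts, and, chosen after seeing the data, subtraction of the median of genes of like length or GC content, and the other scalings of the transport intervals.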

Additional observations from a re-analysis of the deposited data

Results flagged for a closer look

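KIF25-AS1, an antisense gene at the KIF25 locus that is no kinesin and was in no comparison, had 48 counts in T-shMBD2 and 27 in T-shNC. Its log2FC was 0.81 (exact 95% interval 0.11 to 1.56, counting error only). It was singled out among the KIF-named rows outside the rule because its interval lay wholly above 0 and its T-shMBD2 count exceeded the floor of 3. The interval was thus part of the choice and is no separate support. KIF25 itself had 1 count in each library. With 1 library per condition no group was large enough to look for a sample far from the others.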

How the results depend on the processing

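Across the settings planned with the design, the median log2FC of the mitotic kinesins ran from -0.22 to -0.18 and that of the transport kinesins from -0.13 to -0.09. The difference of the medians ran from -0.09 to -0.08, the latter with at least 100 counts summed. Scaling by library size adds the same amount to every log2FC, so those settings could not change the difference of the medians. Subtraction of the median of genes of like length, chosen after seeing the data, covered only kinesins with at least 1000 counts, 12 mitotic and 9 transport. Their difference of the medians was -0.09 before it. The subtraction moved the mitotic median to -0.24 and the difference to -0.16. The cause was not tested. The same by GC content gave -0.20 and -0.11. The number of kinesins past 1 or -1 went from 3 to 1 with at least 100 counts summed, which removes KIF1A and KIF4B, and from 3 to 1 with log2 of TPM plus 1, which shrinks low genes. The numbers of mitotic intervals wholly below and above 0 stayed at 9 and 0 under the other scalings. The number of transport intervals above 0 went from 2 to 1 with total counts and from 2 to 1 with upper-quartile factors (KIF3B), and the number below 0 from 6 to 5 with DESeq2 size factors (KIF1C). Of 234 single kinesin values under alternatives 1 moved by more than its interval, KIF1A, to -0.52 with log2 of TPM plus 1, and only KIF2C changed sign, within its interval. Depth limits KIF1A, KIF4B, KIF5A, KIF6, KIF17 and KIF26B most. No paired analysis was possible because T-shMBD2 and T-shNC are 1 library each.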

Other observations

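Neuronal genes were examined because KIF1A, KIF5A and KIF5C are best known from neurons. Of 12 such genes 9 had at least 10 counts, 2 stood above 0 and 7 below, and the median log2FC was -0.14. STMN3, a microtubule-destabilising stathmin, was the highest of these list members at 0.71 (253 and 153 counts), and NEFL, the light neurofilament chain, was the lowest at -0.49 (174 and 243 counts). After subtraction of the median of genes of like length or GC content, 11 of the 12 mitotic kinesins lay below 0 in each case.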
